A study of Mus musculus with 8 samples.

Results

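Fatty acid uptake and oxidation genes were followed as a set of 32 named genes, from the lipase that releases fatty acids at the vessel wall to the flavoproteins that pass electrons from β-oxidation to the respiratory chain. Each of the 32 had a probe set annotated with its symbol alone and was read from the probe set with the highest mean over the 8 arrays, out of 19938 genes read in this way. The values are log2 expression values of Affymetrix arrays, so a difference of 1 is a 2-fold change. RNA came from hearts of 8 mice, aged 9 weeks and of the C57Bl6 background, with 1 array per animal. Arrays 1 and 2 were wild type (WT) untreated, arrays 3 and 4 WT PE, arrays 5 and 6 S105A untreated, and arrays 7 and 8 S105A PE. S105A mice were homozygous for a serine-to-alanine substitution in the cardiac transcription factor GATA4, and the labels do not say how the allele was made. PE is written out as pseudophedrine in the labels, was delivered subcutaneously from osmotic pumps at 100 mg/kg/day, and ran for 5 days. The controls are called untreated in the titles, although the protocol gives saline as the alternative to PE. The labels name both the ventricle and the whole heart as the tissue, and fewer cells of a type cannot be told apart from less RNA per cell in such samples.

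The adult heart draws most of its energy from long-chain fatty acids. These are freed from lipoproteins by lipoprotein lipase, enter the cardiomyocyte through CD36 and fatty acid transport proteins, and are carried in the cytosol by the heart fatty acid binding protein. Activated fatty acids cross the inner mitochondrial membrane on carnitine and are then shortened by repeated rounds of dehydrogenation, hydration, another dehydrogenation and thiolysis. Many of these genes are textbook targets of the nuclear receptors PPARα and ERRα with the coactivator PGC-1α, and a lower expression of the pathway is a known feature of the hypertrophied heart.

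Promoter sequences are shown for a few members as a description, since the mutated protein is a DNA-binding factor. Any part of that factor in the members' values was not tested. The windows run from 250 bases before the RefSeq start site up to it, in GRCm38.p6, and are written 5′ to 3′ on the strand of the gene. Capitals mark matches to a few motifs, searched on both strands, so that a match may read as its reverse complement. For GATA factors the letters searched were AGATAA and, as a variant, TGATAA. The core shared by many nuclear receptors is AGGTCA. For ERR receptors the search used AAGGTCA and its longer form TCAAGGTCA, and for PPAR with RXR the core repeated after 1 base. AGGTCA also lies inside the ERR and PPAR motifs, and AAGGTCA inside TCAAGGTCA. Acadm (medium-chain acyl-CoA dehydrogenase) holds the only AAGGTCA among the members' windows. Acadvl (very long-chain acyl-CoA dehydrogenase) and Eci2 (an enoyl-CoA isomerase) hold the only GATA motifs. Ucp3 and Cpt1a, at the opposite ends of the members by their difference with PE, both hold AGGTCA. Hadha and Hadhb, the subunits of the trifunctional protein, are transcribed away from each other from start sites 273 bases apart. Their windows share 228 bases, chr5:30155003-30155230, and the rest of the window printed for Hadhb is outside that of Hadha.

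Acadm (chr3:153944644-153944893, minus strand): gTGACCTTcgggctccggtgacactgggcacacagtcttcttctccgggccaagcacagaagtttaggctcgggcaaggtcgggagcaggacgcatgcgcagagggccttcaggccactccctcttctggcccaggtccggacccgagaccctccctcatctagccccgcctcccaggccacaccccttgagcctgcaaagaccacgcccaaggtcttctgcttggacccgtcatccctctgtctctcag

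Acadvl (chr11:70015429-70015678, minus strand): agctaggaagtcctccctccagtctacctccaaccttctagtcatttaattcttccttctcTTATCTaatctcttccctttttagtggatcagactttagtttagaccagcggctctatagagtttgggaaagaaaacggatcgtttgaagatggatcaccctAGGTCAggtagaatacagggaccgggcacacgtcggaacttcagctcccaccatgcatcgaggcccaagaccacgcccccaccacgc

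Eci2 (chr13:34994145-34994394, minus strand): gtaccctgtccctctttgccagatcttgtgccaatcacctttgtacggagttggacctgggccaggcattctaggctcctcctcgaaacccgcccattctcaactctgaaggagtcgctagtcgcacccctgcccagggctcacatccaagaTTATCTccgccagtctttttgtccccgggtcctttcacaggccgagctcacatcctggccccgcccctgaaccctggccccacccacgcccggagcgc

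Ucp3 (chr7:100472741-100472990, plus strand): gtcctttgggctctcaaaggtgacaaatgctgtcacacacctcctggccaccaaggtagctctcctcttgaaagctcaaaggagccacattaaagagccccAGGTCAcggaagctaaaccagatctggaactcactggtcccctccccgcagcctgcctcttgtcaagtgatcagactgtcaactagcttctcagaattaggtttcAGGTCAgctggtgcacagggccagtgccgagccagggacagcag

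Cpt1a (chr19:3323051-3323300, plus strand): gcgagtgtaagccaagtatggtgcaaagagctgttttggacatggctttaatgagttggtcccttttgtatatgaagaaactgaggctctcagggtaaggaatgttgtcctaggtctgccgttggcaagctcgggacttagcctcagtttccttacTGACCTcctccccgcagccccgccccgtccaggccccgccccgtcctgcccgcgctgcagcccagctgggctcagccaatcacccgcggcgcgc

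Hadhb, shared with Hadha (chr5:30155003-30155252, plus strand): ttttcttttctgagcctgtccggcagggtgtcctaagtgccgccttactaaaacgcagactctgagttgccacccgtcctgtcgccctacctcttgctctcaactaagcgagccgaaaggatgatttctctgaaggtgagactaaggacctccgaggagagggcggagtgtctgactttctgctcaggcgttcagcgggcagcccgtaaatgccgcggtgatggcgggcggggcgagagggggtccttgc

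In windows of 300 bases, which add the 50 bases after the start, the promoter set used held 29 entries for 26 of 32 members. No entry was matched in that set for Lpl, Crat, Acaa2, Decr1, Amacr and Acot13. AGATAA was in 2 of the 29 windows and in 11.2% of all 32851 promoters. AGGTCA was in 8 of 29 and in 16.3% of all. AAGGTCA was in 1 of 29 and in 4.72% of all. TGATAA, the repeat of AGGTCA and TCAAGGTCA were in 0 of 29, against 9.05%, 0.0396% and 0.423% of all promoters. These matches describe the letters of the windows and carry no test of binding.

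PE hearts had lower values than untreated hearts for nearly all members, and the size of the difference varied between the hearts of a group. Averaged over the genotypes, 31 of 32 members had a negative PE difference, against 56% of all genes, with a median of -0.48 against -0.02 for all genes. The lowest was Ucp3 at -1.06 and the exception was Cpt1a at 0.08. The negative direction was shared by 40 of 40 oxidative phosphorylation genes, at a median of -0.32. By limma 0 of the 32 passed an adjusted p of 0.05, as did 0.00502% of all genes, and 5 of 32 were lower at an unadjusted p under 0.05, as were 7.44% of all genes. The 5 were Acads, Slc22a5, Slc25a20, Ehhadh and Amacr. None of the members is therefore called lower, and the sizes are given as values. Gata4 itself read 10.14 and 10.05 in WT untreated, 10.16 and 9.92 in WT PE, 10.07 and 9.96 in S105A untreated and 10.02 and 10.09 in S105A PE hearts, and the arrays do not read the substitution. Myh7, the fetal myosin heavy chain gene that rises in stressed mouse hearts, differed on average by 2.30 (SE 0.12, limma adjusted p = 0.00808) and was the single gene of 19938 past the threshold.

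The members' values followed the individual PE hearts. Array 3 was the lowest of the 8 arrays for 31 of 32 members, the exception being Cpt1a, against 25.9% of all genes. For 29 members array 3 was lowest and array 7 next lowest, against 13.5% of all genes; the exceptions were Cpt1a, Acadl and Amacr. Relative to the untreated hearts of its genotype, the median member lay at -1.20 and -0.13 in the WT PE arrays 3 and 4, and at -0.48 and -0.06 in the S105A PE arrays 7 and 8. A deficit of over 2-fold was present for 20 of 32 members in array 3 (2.02% of all genes) and for 1, Ucp3, in array 7 (0.171% of all genes). It was present for 0 members in arrays 4 and 8, against 0.0401% and 0.0251% of all genes. Between the arrays of a group, the median absolute difference over members was 1.06 for WT PE and 0.42 for S105A PE, but 0.07 for both untreated groups. Over all genes these medians were 0.16, 0.13, 0.09 and 0.09, with the untreated groups last. All 4 PE arrays still lay below all 4 untreated arrays for 11 members (Cd36, Slc25a20, Acadvl, Acadm, Hadhb, Eci1, Decr1, Ech1, Etfb, Etfdh and Mlycd), against 6.15% of all genes. Array 4 alone was below both WT untreated arrays for 25 members (34.9% of all genes), and array 8 below both S105A untreated arrays for 23 (35.1% of all genes).

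**Figure D1:**
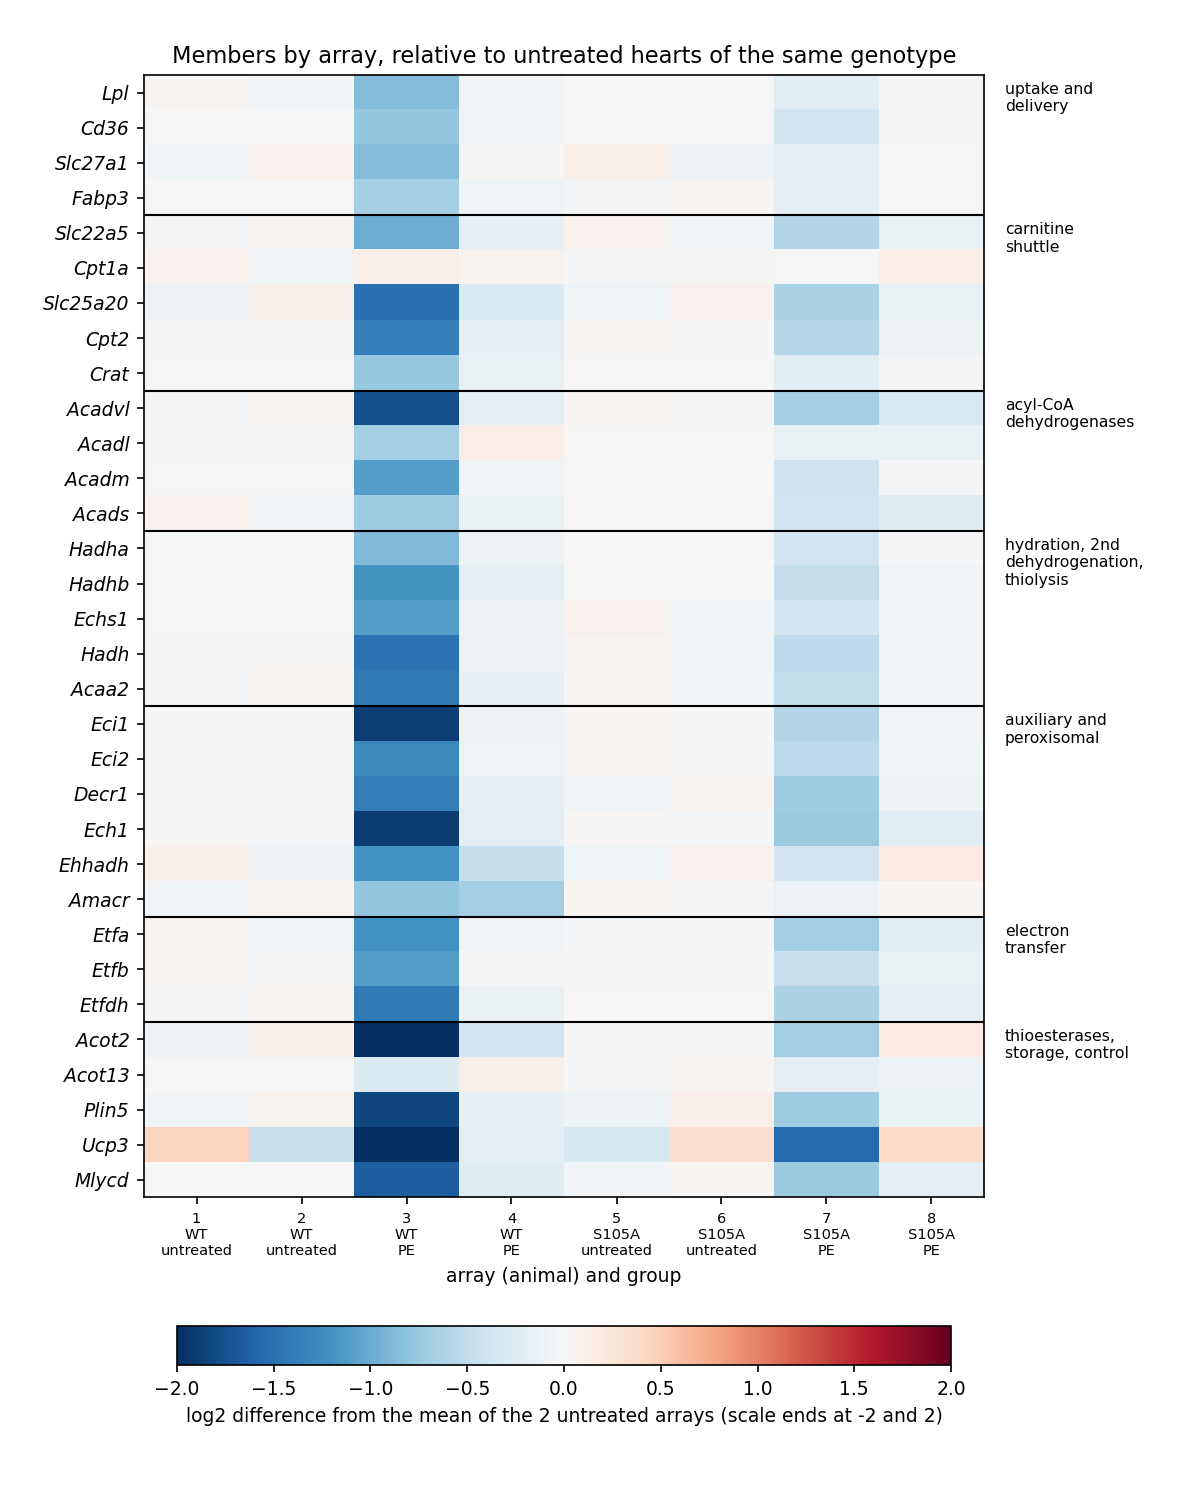
Log2 difference of each of the 32 members (rows, ordered by role) in each array (columns) from the mean of the 2 untreated arrays of the same genotype; the colour scale ends at -2 and 2 and Acot2 and Ucp3 in array 3 lie beyond it. Array 3 is low for 31 of 32 members and array 7 less so, while arrays 4 and 8 lie closer to the untreated arrays for most members, with Amacr (-0.68), Ehhadh (-0.47) and Acot2 (-0.39) the lowest in array 4.

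Genes of fatty acid delivery and uptake had the smallest deficits of the 7 role groups in array 3, at a median of -0.82. Cd36, the main fatty acid translocase of the cardiomyocyte surface, read 13.22 and 13.20 in WT untreated, 12.43 and 13.12 in WT PE, 13.21 and 13.21 in S105A untreated and 12.84 and 13.17 in S105A PE hearts. Every PE heart was below every untreated heart, with array 3 far lowest, and the averaged PE difference was -0.32 (SE 0.16, limma adjusted p = 0.336). Lpl, the lipase that frees fatty acids from lipoproteins, read 13.47 and 13.35 in WT untreated, 12.54 and 13.36 in WT PE, 13.43 and 13.42 in S105A untreated and 13.20 and 13.38 in S105A PE hearts. The WT groups overlapped, since array 4 lay between the untreated arrays, the S105A groups did not, and the difference was -0.29 (SE 0.17, limma adjusted p = 0.392). Slc27a1, a fatty acid transport protein, and Fabp3, the cytosolic carrier, differed by -0.26 (SE 0.19, limma adjusted p = 0.489) and -0.24 (SE 0.13, limma adjusted p = 0.366). In array 3 the 4 genes lay between -0.86 and -0.67 from the WT untreated mean, and in array 7 between -0.37 and -0.20 from the S105A untreated mean.

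Of the 5 carnitine shuttle genes, 4 had lower values with PE on average. Cpt1a, the liver-type carnitine palmitoyltransferase of the outer membrane, read 9.55 and 9.37 in WT untreated, 9.57 and 9.53 in WT PE, 9.46 and 9.50 in S105A untreated and 9.48 and 9.61 in S105A PE hearts. All 8 hearts lay within a narrow band, and its averaged difference was 0.08 (SE 0.07, 95% interval -0.08 to 0.24, limma adjusted p = 0.543). Slc25a20, the carnitine-acylcarnitine carrier of the inner membrane, read 10.82 and 11.04 in WT untreated, 9.43 and 10.66 in WT PE, 10.75 and 10.91 in S105A untreated and 10.19 and 10.68 in S105A PE hearts. All PE hearts were below all untreated hearts, and the difference was -0.64 (SE 0.26, 95% interval -1.27 to -0.01, limma adjusted p = 0.296). Cpt2, which regenerates acyl-CoA in the matrix, read 11.28 and 11.22 in WT untreated, 9.88 and 11.09 in WT PE, 11.43 and 11.34 in S105A untreated and 10.82 and 11.28 in S105A PE hearts. Within each genotype both PE hearts were below both controls, array 3 by far the most, at a difference of -0.55 (SE 0.26, limma adjusted p = 0.322). Slc22a5, the plasma membrane carnitine transporter, read 8.16 and 8.24 in WT untreated, 7.20 and 8.04 in WT PE, 8.13 and 7.96 in S105A untreated and 7.46 and 7.89 in S105A PE hearts. Arrays 3 and 7 stood well below the other 6 arrays, and it differed by -0.47 (SE 0.19, limma adjusted p = 0.293) and the carnitine acetyltransferase Crat by -0.29 (SE 0.13, limma adjusted p = 0.316). Cpt1b, the muscle isoform, and Acsl1, the main acyl-CoA synthetase of heart, had no probe set of a single symbol and are not analysed here.

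Among the acyl-CoA dehydrogenases, which open each round of β-oxidation and differ in the chain length they accept, the very long-chain enzyme gene was the lowest. Acadvl read 11.59 and 11.67 in WT untreated, 9.87 and 11.45 in WT PE, 11.80 and 11.72 in S105A untreated and 11.10 and 11.46 in S105A PE hearts. In array 3 this was 3.37-fold below the WT untreated mean and in array 7 it was 1.59-fold below the S105A untreated mean, and the averaged difference was -0.73 (SE 0.32, limma adjusted p = 0.306). Acadm read 12.96 and 12.97 in WT untreated, 11.87 and 12.91 in WT PE, 12.92 and 12.94 in S105A untreated and 12.52 and 12.90 in S105A PE hearts. The 4 untreated hearts agreed closely, arrays 4 and 8 lay just under them and arrays 3 and 7 clearly under them, at a difference of -0.40 (SE 0.22, limma adjusted p = 0.373). Acadl, the long-chain enzyme gene, read 12.35 and 12.31 in WT untreated, 11.65 and 12.47 in WT PE, 12.60 and 12.59 in S105A untreated and 12.45 and 12.45 in S105A PE hearts. Array 3 alone was clearly low, array 4 was above both WT untreated arrays, and the difference was -0.21 (SE 0.17, limma adjusted p = 0.534). Acads, the short-chain enzyme gene, read 10.95 and 10.77 in WT untreated, 10.13 and 10.73 in WT PE, 11.11 and 11.10 in S105A untreated and 10.70 and 10.86 in S105A PE hearts. Its difference was -0.38 (SE 0.13, 95% interval -0.70 to -0.06, limma adjusted p = 0.285).

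**Figure D2:**
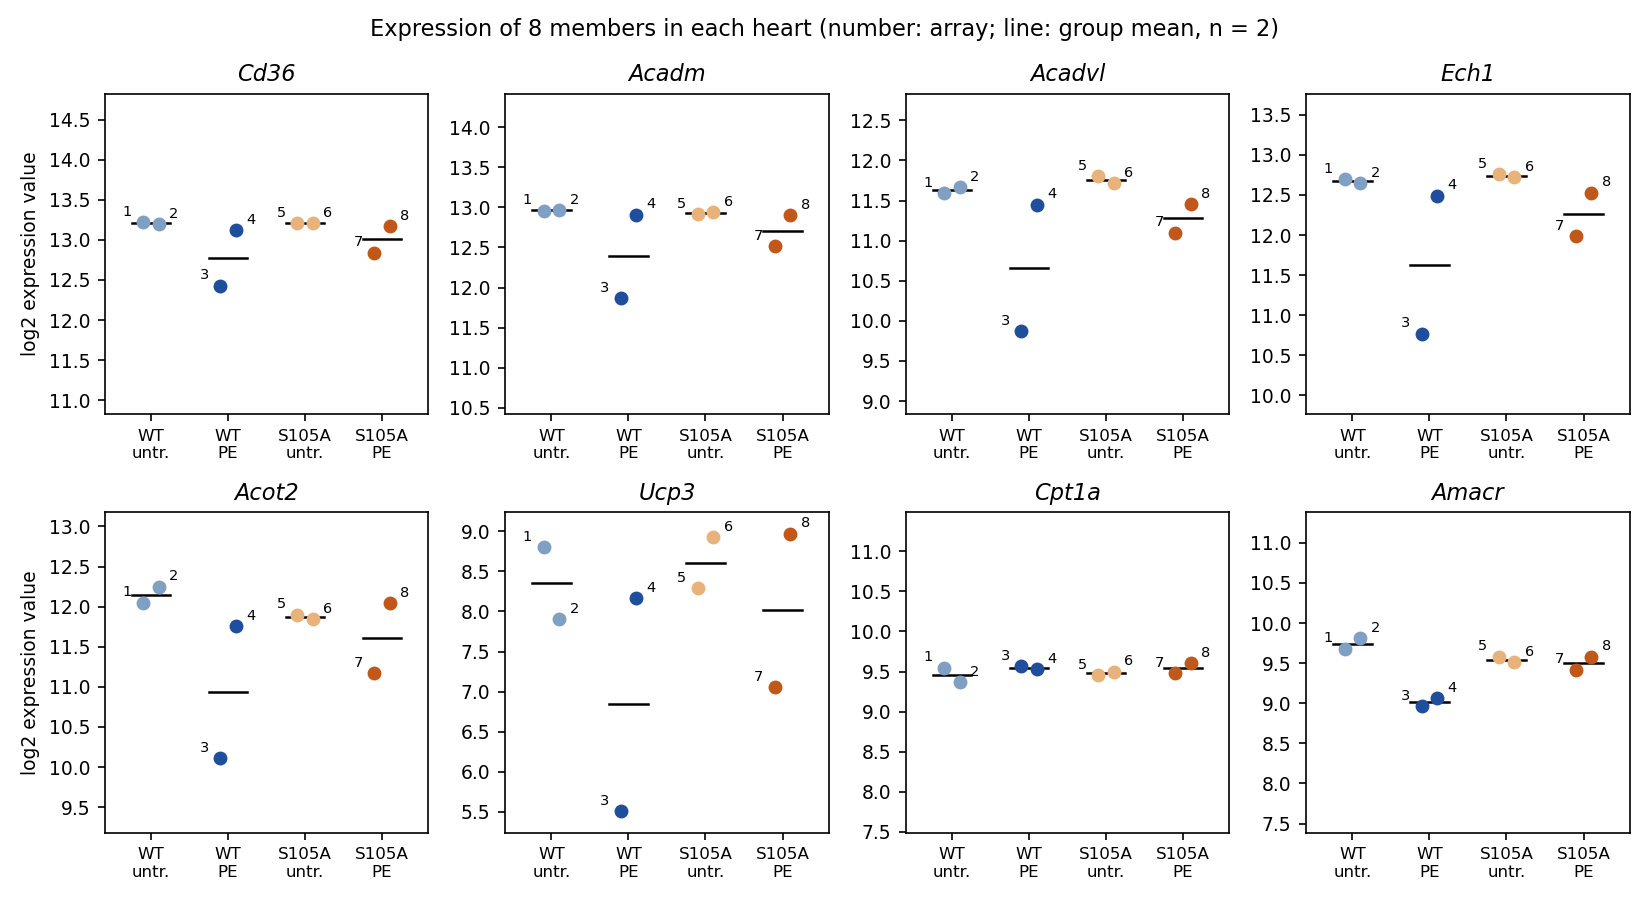
Log2 expression values (y axis, 4 units high in each panel) of 8 members in each heart by group (x axis), with the array number beside each point and the group mean of 2 arrays as a line. Cd36, Acadm, Acadvl, Ech1, Acot2 and Ucp3 are lowest in array 3, Cpt1a is level across the 8 hearts, and Amacr is low in both WT PE hearts.

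The enzymes of the remaining steps of the spiral were all lowest in array 3, with array 3 deviations from -1.48 to -0.87 and array 7 deviations from -0.52 to -0.37. Hadha and Hadhb encode the α and β subunits of the mitochondrial trifunctional protein, which carries out those steps on long chains. Hadha read 13.02 and 13.00 in WT untreated, 12.13 and 12.91 in WT PE, 13.06 and 13.07 in S105A untreated and 12.67 and 13.02 in S105A PE hearts. Hadhb read 12.72 and 12.73 in WT untreated, 11.53 and 12.55 in WT PE, 12.73 and 12.73 in S105A untreated and 12.26 and 12.67 in S105A PE hearts. Both were lowest in array 3, next lowest in array 7 and near the untreated hearts in arrays 4 and 8, with averaged differences of -0.35 (SE 0.17, limma adjusted p = 0.331) and -0.48 (SE 0.22, limma adjusted p = 0.316). Hadh, the dehydrogenase for shorter chains, differed by -0.55 (SE 0.28, limma adjusted p = 0.351), the crotonase Echs1 by -0.41 (SE 0.21, limma adjusted p = 0.353) and the thiolase Acaa2 by -0.53 (SE 0.26, limma adjusted p = 0.337).

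Auxiliary enzymes, which prepare double bonds and branched chains for the spiral, held both some of the largest deficits and Amacr, whose WT PE hearts were both low. Ech1, a dienoyl-CoA isomerase, read 12.70 and 12.65 in WT untreated, 10.77 and 12.49 in WT PE, 12.76 and 12.72 in S105A untreated and 11.99 and 12.53 in S105A PE hearts. Array 3 was 3.74-fold and array 7 was 1.67-fold below the untreated mean of its genotype, all PE hearts were below all untreated hearts, and the difference was -0.76 (SE 0.35, limma adjusted p = 0.319). Eci1, an enoyl-CoA isomerase, read 11.58 and 11.53 in WT untreated, 9.67 and 11.45 in WT PE, 11.60 and 11.53 in S105A untreated and 10.98 and 11.51 in S105A PE hearts. Its array 3 stood at -1.89 while arrays 4 and 8 stood at -0.10 and -0.05, and the averaged difference was -0.66 (SE 0.36, limma adjusted p = 0.373). Eci2 and the dienoyl-CoA reductase gene Decr1 differed by -0.50 (SE 0.25, limma adjusted p = 0.346) and -0.59 (SE 0.27, limma adjusted p = 0.316).

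Amacr, a racemase for branched-chain acyl-CoAs in peroxisomes and mitochondria, read 9.68 and 9.81 in WT untreated, 8.96 and 9.06 in WT PE, 9.58 and 9.51 in S105A untreated and 9.42 and 9.58 in S105A PE hearts. Both WT PE hearts were low and close to each other, whereas the S105A PE hearts overlapped their controls. In WT the PE difference was -0.73 (SE 0.10, 95% interval -0.96 to -0.50, limma adjusted p = 0.419), the smallest p of the members, and in S105A it was -0.04 (SE 0.10, 95% interval -0.27 to 0.19, limma adjusted p = 0.913). Averaged over the genotypes it was -0.38 (SE 0.07, 95% interval -0.55 to -0.22, limma adjusted p = 0.275). With a threshold of an unadjusted p under 0.01 and 1.5-fold, Amacr was the 1 member lower in WT (0.341% of all genes) and the 1 member with a higher value of the difference between genotypes (0.0853% of all genes). Ehhadh, the bifunctional enzyme of peroxisomal β-oxidation, read 7.66 and 7.46 in WT untreated, 6.35 and 7.09 in WT PE, 7.25 and 7.41 in S105A untreated and 6.94 and 7.49 in S105A PE hearts. Arrays 3 and 4 lay below both WT untreated arrays, array 8 lay above both S105A untreated arrays, and the PE difference was -0.84 (SE 0.27, limma adjusted p = 0.419) in WT and -0.11 (SE 0.27, limma adjusted p = 0.914) in S105A. Its averaged difference was -0.48 (SE 0.19, 95% interval -0.93 to -0.02, limma adjusted p = 0.292).

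The averaged PE differences of the electron-transfer flavoprotein genes lay close together. Etfa and Etfb encode the subunits of the flavoprotein that takes electrons from the acyl-CoA dehydrogenases, and Etfdh the oxidoreductase that passes them to ubiquinone. Etfdh read 12.01 and 12.09 in WT untreated, 10.64 and 11.92 in WT PE, 12.12 and 12.11 in S105A untreated and 11.48 and 11.92 in S105A PE hearts. Etfb read 12.78 and 12.69 in WT untreated, 11.62 and 12.69 in WT PE, 12.87 and 12.82 in S105A untreated and 12.39 and 12.69 in S105A PE hearts. All PE hearts were below all untreated hearts for Etfdh, and for Etfb only by less than the precision printed, since arrays 2, 4 and 8 round to the same value. For Etfa, arrays 2 and 4 round to the same value, 11.75. The averaged differences were -0.54 (SE 0.25, limma adjusted p = 0.318) for Etfa, -0.45 (SE 0.22, limma adjusted p = 0.337) for Etfb and -0.59 (SE 0.27, limma adjusted p = 0.312) for Etfdh.

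Genes that adjust the flux held the widest range. Ucp3, an uncoupling protein of muscle mitochondria that follows fatty acid supply, read 8.80 and 7.90 in WT untreated, 5.51 and 8.17 in WT PE, 8.29 and 8.93 in S105A untreated and 7.06 and 8.97 in S105A PE hearts. Arrays 3 and 7 were 7.15-fold and 2.94-fold below the untreated means, but the untreated hearts also differed among themselves, by 0.89 in WT and 0.64 in S105A, and the interval of the averaged difference was wide at -1.06 (SE 0.67, 95% interval -2.64 to 0.53, limma adjusted p = 0.427). Acot2, a mitochondrial acyl-CoA thioesterase, read 12.05 and 12.25 in WT untreated, 10.11 and 11.76 in WT PE, 11.90 and 11.84 in S105A untreated and 11.17 and 12.04 in S105A PE hearts. Array 3 was 4.11-fold below the WT mean, array 8 lay above both of its controls, and the difference was -0.74 (SE 0.36, limma adjusted p = 0.337). Plin5, which tethers lipid droplets to mitochondria, read 8.99 and 9.14 in WT untreated, 7.25 and 8.90 in WT PE, 9.13 and 9.33 in S105A untreated and 8.52 and 9.10 in S105A PE hearts. Mlycd, the decarboxylase that removes the inhibitor malonyl-CoA, read 9.35 and 9.32 in WT untreated, 7.69 and 9.10 in WT PE, 9.26 and 9.38 in S105A untreated and 8.58 and 9.12 in S105A PE hearts. All PE hearts were below all untreated hearts for Mlycd but not for Plin5, and the differences were -0.70 (SE 0.30, 95% interval -1.41 to 0.00, limma adjusted p = 0.298) and -0.71 (SE 0.34, limma adjusted p = 0.333). Acot13, another thioesterase gene, read 11.25 and 11.24 in WT untreated, 10.97 and 11.37 in WT PE, 11.35 and 11.43 in S105A untreated and 11.21 and 11.28 in S105A PE hearts. Array 3 was lowest by a small margin, at an averaged difference of -0.11 (SE 0.09, 95% interval -0.33 to 0.11, limma adjusted p = 0.56).

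**Figure D3:**
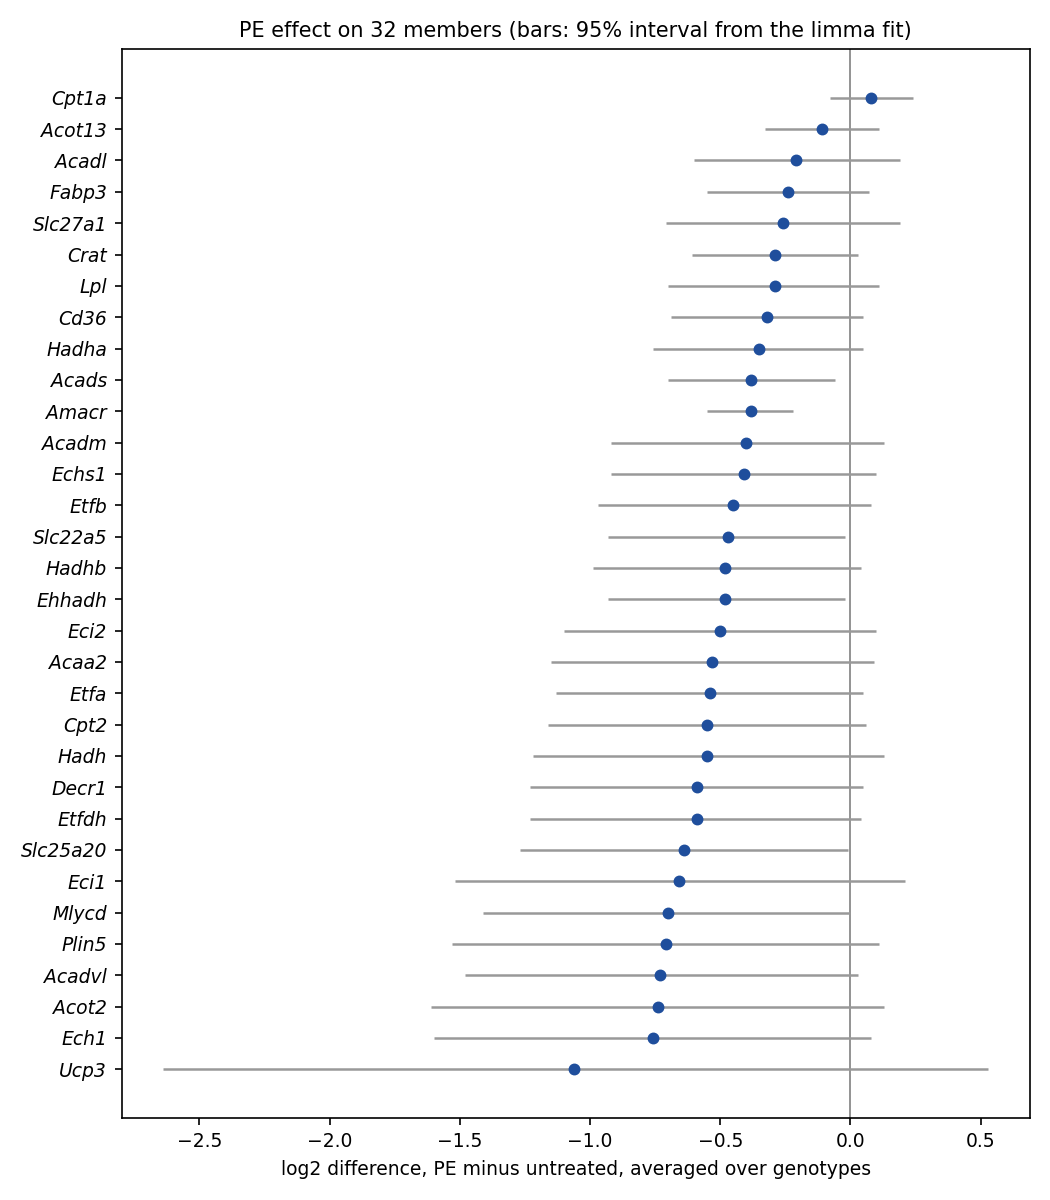
Averaged PE difference (x axis, log2, PE minus untreated) of the 32 members, ordered from the highest to the lowest; points are limma estimates and bars their 95% intervals. Of the 32 points, 31 lie below 0, and the interval lies wholly below 0 for Amacr, Acads, Slc22a5, Ehhadh and Slc25a20.

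Within the genotypes the same list was lower by different amounts. In WT, 31 of 32 members had a negative PE difference (51.1% of all genes) with a median of -0.68, against -0.00 for all genes, and 0 passed by limma, as against 0.00502% of all genes. At an unadjusted p under 0.05 there were 2 lower members, Amacr and Ehhadh, and 5.76% of all genes were lower at that level. Slc25a20 and Acot2 followed, at -0.88 (SE 0.37, limma adjusted p = 0.419) and -1.21 (SE 0.52, limma adjusted p = 0.419). In S105A, 31 of 32 were negative (56.4% of all genes) with a median of -0.28 against -0.02 for all genes, and 0 passed by limma at the adjusted threshold or at an unadjusted p under 0.05, where 2.77% of all genes were lower. The smallest p in S105A belonged to Acads at -0.33 (SE 0.19, limma adjusted p = 0.765), Slc22a5 at -0.37 (SE 0.27, limma adjusted p = 0.766), Etfa at -0.45 (SE 0.35, limma adjusted p = 0.772) and Mlycd at -0.47 (SE 0.42, limma adjusted p = 0.789). Single hearts decided these sizes. Without array 3 the WT median was -0.13 and the averaged median -0.22. Without array 4 they were -1.20 and -0.72, and 30 of 32 members passed as lower in WT and on average, where 8.85% and 9.69% of all genes did; the exceptions in both were Cpt1a and Acot13. A group left with 1 array adds nothing to the estimated spread, and that lone array is taken to vary like the other groups. Without array 7 the S105A median was -0.06, and without array 8 it was -0.48.

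Hearts 3 and 7, of different genotype and with different controls, ordered the members alike. Each was the PE heart of its group with the lower median member, and arrays 3 and 8 or 4 and 7 were not correlated. Over the 32 members the deviation of array 3 from its controls had a Pearson correlation of 0.905 (Spearman 0.887) with that of array 7, and over all 19938 genes of 0.814 (Spearman 0.648). The members share their arrays and are not independent, so the correlations are descriptions. For arrays 4 and 8 the values were -0.247 (Spearman -0.001) over the members and 0.377 (Spearman 0.181) over all genes. There the median member lay close to its controls, at -0.13 and -0.06. Ucp3, Acot2, Ech1, Eci1 and Plin5 were the 5 lowest in array 3, and Cpt1a and Acot13 the highest.

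**Figure D4:**
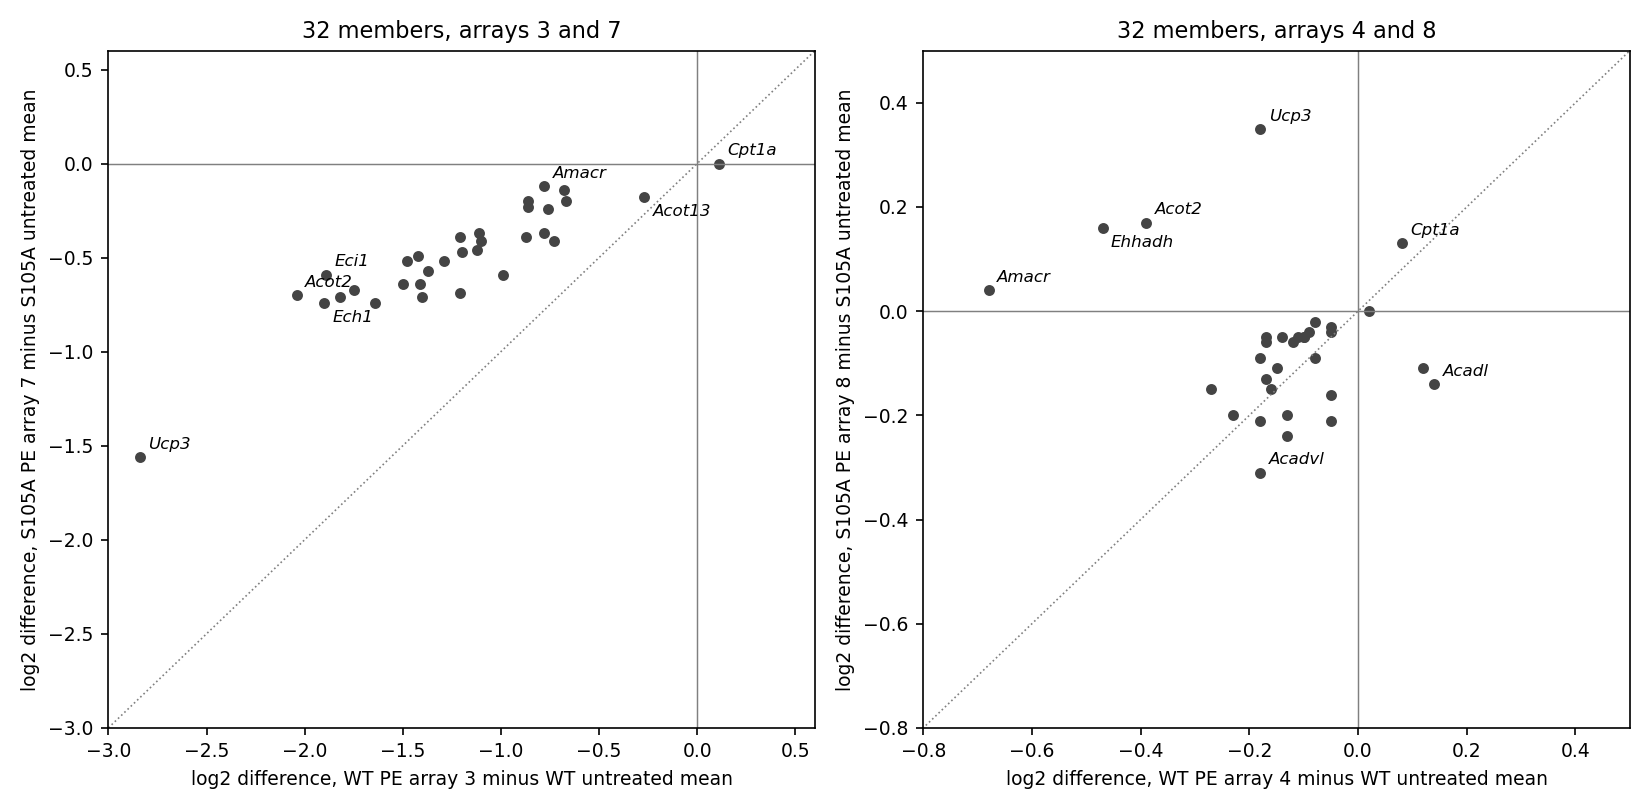
Each of the 32 members as a point: its log2 difference from the WT untreated mean in a WT PE heart (x axis) and from the S105A untreated mean in an S105A PE heart (y axis), for arrays 3 and 7 at left and arrays 4 and 8 at right, with narrower axes at right and the line of equality dotted. At left the points spread along a line shallower than equality from Cpt1a near 0 to Ucp3 at -2.84 and -1.56; at right all lie between -0.68 and 0.35.

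Set against WT, S105A hearts had the smaller PE deficit for 30 of 32 members. The S105A minus WT value of the PE difference was negative for 52.5% of all genes and, over the members, had a median of 0.38 against -0.01 for all genes. By limma 0 passed, as in 0% of all genes, and 1 member, Amacr, was higher at an unadjusted p under 0.05, as were 0.903% of all genes. Amacr stood at 0.69 (SE 0.14, 95% interval 0.37 to 1.01, limma adjusted p = 1). Ehhadh at 0.73 (SE 0.38, 95% interval -0.19 to 1.64, limma adjusted p = 1), Acot2 at 0.95 (SE 0.73, 95% interval -0.79 to 2.69, limma adjusted p = 1) and Crat at 0.30 (SE 0.27, 95% interval -0.34 to 0.94, limma adjusted p = 1) came next. The sign of the median rested on array 3. Without it the median was -0.17 and 29 of 32 differences were negative; without array 4 it was 0.92, without array 7 it was 0.58, without array 8 it was 0.19, and without arrays 3 and 7 together it was 0.05. Amacr kept a value from 0.61 to 0.77 when any 1 array was left out, and was 0.72 without arrays 3 and 7.

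Without PE, members differed little in size between the genotypes. The S105A minus WT difference had a median of 0.03 (0.00 for all genes) and ran from -0.28 for Acot2 to 0.26, with 20 members higher and 12 lower (49.1% of all genes were lower), and 0 passed by limma at the adjusted threshold, as in 0% of all genes, or at an unadjusted p under 0.05, where 2.53% of all genes were lower and 2.43% higher. Both S105A arrays lay above both WT arrays for 13 members (21.8% of all genes) and below them for 5 (22.7% of all genes). The smallest p belonged to Amacr at -0.20 (SE 0.10, 95% interval -0.43 to 0.03, limma adjusted p = 0.962), followed by Acads at 0.25 (SE 0.19, limma adjusted p = 0.992), Acadl at 0.26 (SE 0.23, limma adjusted p = 0.998) and Acot13 at 0.14 (SE 0.13, limma adjusted p = 0.998). With PE, 31 of 32 members were higher in S105A, where 53.1% of all genes were lower, at a median of 0.39 against -0.01 for all genes, and 0 passed by limma, as in 0% of all genes. Amacr was the 1 member above WT in both PE arrays, which held for 10.5% of all genes, at 0.49 (SE 0.10, 95% interval 0.26 to 0.72, limma adjusted p = 0.989). It was also the 1 member higher at an unadjusted p under 0.05, as were 1.25% of all genes. Crat at 0.37 (SE 0.19, limma adjusted p = 0.989), Acads at 0.35 (SE 0.19, limma adjusted p = 0.989) and Ehhadh at 0.50 (SE 0.27, limma adjusted p = 0.989) followed. This comparison shares its WT and S105A PE arrays with those above. Without array 3 its median was -0.13, with 26 of 32 members lower; without array 4 it was 0.92, and 19 members passed as higher, where 2.31% of all genes did. It was 0.60 without array 7 and 0.22 without array 8.

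The wider pathway held values in both directions. Of 62 further genes of fatty acid handling and its control that were measured from a list of 68, 47 were lower and 15 higher on average with PE, at a median of -0.24. Of all genes, 56% were lower on average, at a median of -0.02. By limma 0 of the 62 passed at the adjusted threshold, as did 0.00502% of all genes. At an unadjusted p under 0.05 there were 18 lower and 3 higher, against 7.44% and 9.31% of all genes. Ppara, the gene of the fatty acid receptor PPARα, read 9.87 and 9.97 in WT untreated, 8.05 and 9.41 in WT PE, 9.54 and 9.38 in S105A untreated and 8.88 and 9.35 in S105A PE hearts. Array 3 was lowest and both PE hearts of each genotype were below their controls, at -0.77 (SE 0.28, limma adjusted p = 0.287). Ppargc1a, the PGC-1α coactivator gene, differed by -0.55 (SE 0.31, limma adjusted p = 0.382), Esrra, the ERRα gene, by -0.35 (SE 0.12, limma adjusted p = 0.285), and Pdk4, the kinase that limits pyruvate oxidation, by -0.35 (SE 0.37, limma adjusted p = 0.647). Pdk4 read 12.22 and 11.96 in WT untreated, 10.65 and 12.07 in WT PE, 11.73 and 12.10 in S105A untreated and 11.33 and 12.55 in S105A PE hearts, so that arrays 3 and 7 were lowest, array 4 lay between its controls and array 8 was the highest of all. For Ppargc1a array 3 read 8.99 and array 4 read 10.55, between its controls at 10.45 and 10.62. On the lower side the smallest p belonged to the thioesterase Acot7 at -0.27 (SE 0.07, limma adjusted p = 0.275), the lipase activator Abhd5 at -0.19 (SE 0.06, limma adjusted p = 0.277) and the acyl-CoA synthetase Acsl6 at -0.36 (SE 0.11, limma adjusted p = 0.277). On the higher side were the synthetase Acsl5 at 0.38 (SE 0.14, limma adjusted p = 0.285), the lipoprotein lipase inhibitor Angptl4 at 0.44 (SE 0.17, limma adjusted p = 0.288) and the thioesterase Acot9 at 0.40 (SE 0.16, limma adjusted p = 0.296). Angptl4 was highest in arrays 4 and 8, at 7.37 and 7.40. It read 7.02 in array 3 and 6.73 in array 7, and 6.58 to 6.94 in the untreated hearts.

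Markers of other processes and cells differed in the same hearts. The mean of 40 oxidative phosphorylation genes was 12.19 to 12.30 in the untreated hearts. It was 11.49 and 12.14 in the WT PE arrays 3 and 4, and 11.98 and 12.15 in the S105A PE arrays 7 and 8. All 40 were lower on average with PE, 11 of them at an unadjusted limma p under 0.05, against 7.44% of all genes. At the adjusted limma threshold 0 of the 40 passed, as did 0.00502% of all genes. The S105A minus WT value of the PE difference was positive for 39 of the 40, where 52.5% of all genes were negative. Of the WT PE hearts, only array 3 lay further below its controls than the S105A PE hearts. The median gene of the list lay at -0.76 in array 3 and -0.06 in array 4, against -0.30 in array 7 and -0.14 in array 8. With PE, all 40 were higher in S105A, where 53.1% of all genes were lower. Without PE, 36 of the 40 were already higher in S105A, at a median of 0.07, where 49.1% of all genes were lower. Among the PE hearts the list mean of array 4 was about level with array 8 and above array 7. In array 3 the median oxidative phosphorylation gene deviated by -0.76, against -1.20 for the 32 members. The median of 20 glycolysis and glucose use genes deviated by -0.28. In array 7 these were -0.30, -0.48 and -0.10. The glycolysis and glucose use genes went both ways, with 12 below their controls and 8 above in array 3, from -1.31 to 1.95. The 16 cardiomyocyte markers had a mean of 13.10 to 13.14 in the untreated hearts, 12.68 and 13.11 in arrays 3 and 4, and 13.02 and 13.11 in arrays 7 and 8. The median cardiomyocyte marker lay at -0.45 in array 3 and -0.12 in array 7. The list was split, with 12 of the 16 below their controls in array 3 and 4 above, from -1.84 to 0.62. Averaged over the genotypes, 11 were lower with PE and 5 higher. The 12 fibroblast markers, all higher on average with PE, had a mean of 8.97 to 9.18 in the untreated hearts, 11.05 and 9.91 in arrays 3 and 4, and 10.78 and 10 in arrays 7 and 8. The 12 macrophage markers, again all higher, had means of 7.65 to 8.07 in the untreated hearts and 9.31, 8.50, 8.90 and 8.23 in arrays 3, 4, 7 and 8. Of the 7 smooth muscle and pericyte markers, 5 were higher and 2 lower on average with PE, from -0.32 to 1.41. Their means were 9.07 to 9.22 in the untreated hearts and 10.02, 9.32, 9.61 and 9.21 in arrays 3, 4, 7 and 8. The 10 endothelial markers had means of 9.93 to 10.15 in the untreated hearts and 9.73, 9.97, 9.84 and 10.01 in the same PE arrays. The 3 erythroid markers measured had means of 6.69 to 7.10 in the untreated hearts and 6.00, 6.28, 6.36 and 6.51 in the PE arrays. The part of these markers in the members' values was not tested. The 7 adipocyte markers measured had a mean of 5.91 to 6.07 in untreated and 5.92 to 6.00 in PE hearts. The 6 atrial markers had means of 6.73 to 6.90 in untreated hearts and 7.61, 6.99, 7.48 and 7.23 in arrays 3, 4, 7 and 8. Of these, 3 were higher on average with PE, namely Nppa, a natriuretic peptide gene also induced in stressed ventricle, by 2.28, Dkk3 by 0.89 and Myl4 by 0.29, and Sln, Myl7 and Bmp10 were lower, at -0.02, -0.16 and -0.12; none passed by limma. The log2 values have no true 0, so no marker can be listed as absent.

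**Figure D5:**
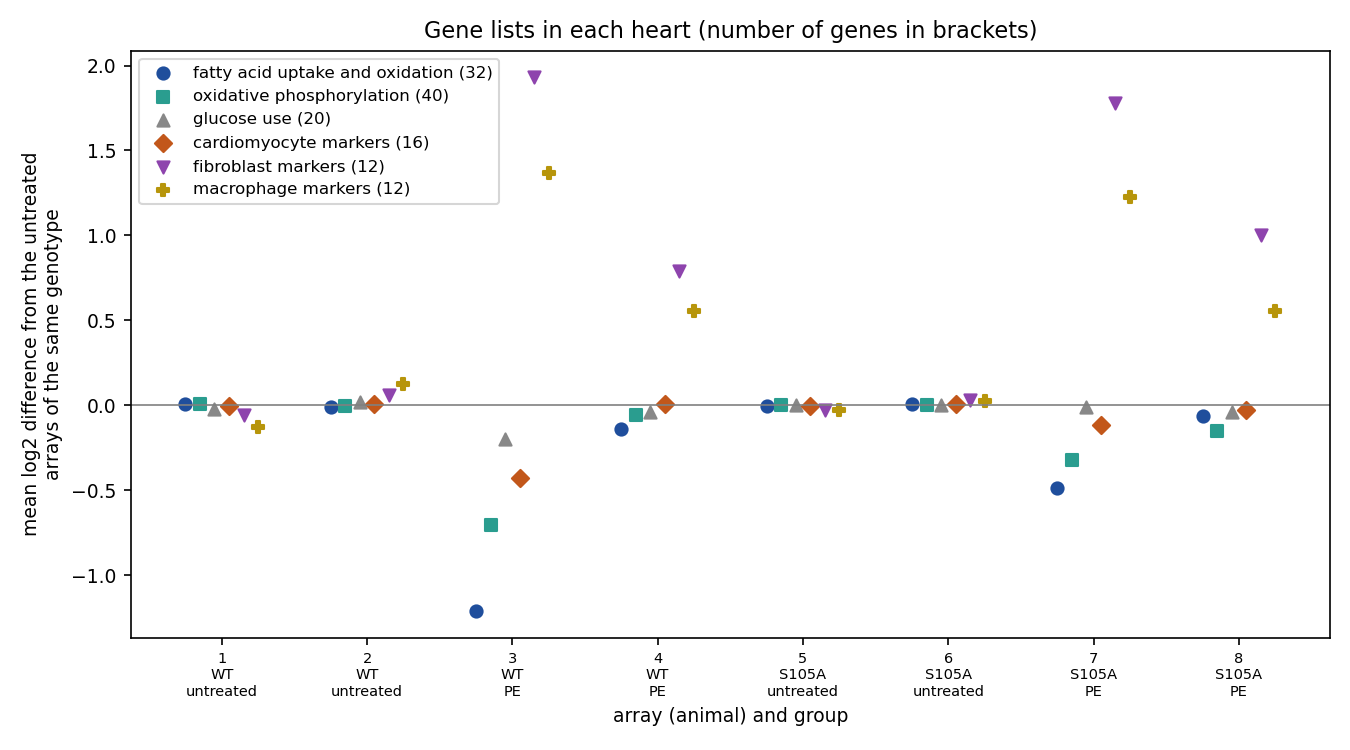
Mean log2 difference of 6 gene lists (symbols) in each array (x axis) from the mean of the untreated arrays of the same genotype (y axis). The 32 members are lowest in array 3, then in array 7, and the fibroblast and macrophage markers are highest in the same arrays.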

How the data were processed

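Total RNA of 8 hearts was hybridised to Affymetrix arrays, 2 animals in each of 4 groups. The authors deposited log2 values summarised with RMA, per the submitters' processing notes; the software version is not given in the sources used here. Of 35557 rows, 21789 carried 1 gene symbol in the platform annotation, 1621 several and 12147 none. For each of 19938 genes the probe set of highest mean was kept. Limma 3.58.1 in R 4.3.3 was fitted to all genes and all 8 arrays with 1 coefficient per group, and p-values were adjusted over all genes by Benjamini-Hochberg with a threshold of 0.05 (residual degrees of freedom 4). The script was tested on simulated data.

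The 32 members and the other gene lists were chosen with earlier results of these data known, as was leaving out arrays 3 and 7 together. All members are described with the averaged PE difference. In the other 5 comparisons the 4 members of smallest unadjusted p are named. Of the pathway list, Cpt1b, Acsl1, Ppara, Ppargc1a, Esrra and Pdk4 and up to 3 genes in each direction of smallest p are named. Alternatives were a filter on low genes, averaging a gene's probe sets, testing every row, quantile normalization once more, another variance model, array weights, fits on 4 arrays, another threshold and leaving out arrays. The number of arrays limits the precision.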

Additional observations from a re-analysis of the deposited data

How the results depend on the processing

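No paired analysis was possible because the labels number the animals 1 to 8 with no number shared between groups. The members' medians depended on which PE heart was left out. So did the counts past the threshold, given above beside the shares of all genes. Leaving out 1 array at a time, the count by limma ranged from 0 to 30 in WT, from 0 to 30 on average and from 0 to 19 for S105A against WT with PE; the upper ends are without array 4. The median ranged from -1.20 to -0.13 in WT, from -0.17 to 0.92 for the difference in the PE effect and from -0.13 to 0.92 for S105A against WT with PE. Without arrays 3 and 7 together the WT median was -0.13, and the averaged differences of Slc27a1 (0.01), Acot13 (0.01) and Ucp3 (0.09) changed sign; leaving out 1 array they were lowest without array 4, at -0.48, -0.21 and -1.72. The difference in the PE effect of Crat was 0 without array 3 and ranged to 0.61. A threshold of 1.5-fold together with an unadjusted limma p under 0.01 gave 1 member, Amacr, in WT and 1, again Amacr, for the difference. Of all genes, 0.341% were lower in WT and 0.0853% higher for the difference at that threshold. The cause was not tested. The filter on low genes, the mean of probe sets, all rows, the further quantile normalization, the other variance model and array weights kept the direction of every median and the count of 0.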

Other observations

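Hadhb and Fabp3 each had a further probe set. The averaged PE difference of Hadhb was -0.48 on the probe set used and -0.49 on the other, and that of Fabp3 was -0.24 and -0.25.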
